A study of Mus musculus with 6 samples.

Results

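Fibroblast growth factors (FGFs) that act between neighbouring cells, their receptors and the Sprouty inhibitors were followed in osteocytes, the cells embedded in bone matrix. They comprised 10 genes of the 18193 with a probe set of their own: 4 ligands (Fgf1, Fgf2, Fgf7 and Fgf18), 3 receptors (Fgfr1, Fgfr2 and Fgfr3), Spry1, Spry2 and Spry4. All 22 probe sets whose annotation names exactly 1 of these genes were taken, whatever their values. The knockout group held 3 arrays from mice lacking estrogen receptor alpha (ERα, encoded by Esr1) in osteocytes, genotype ERαΔOcy/ΔOcy. The control group held 3 arrays from littermates called WT in the sample labels and ERαflox/flox in the extraction protocol. All mice were C57/BL6 females of 10 to 12 days carrying Dmp1-GFP, a green fluorescent protein under the Dmp1 promoter, which is active in osteocytes and late osteoblasts. Calvarial cells from fractions 4 to 6 of a sequential digestion were sorted for green fluorescence. The labels name neither the driver of Cre nor whether controls carried it. The protocol speaks of pooled calvarial tissue while the series design says RNA was not pooled, so p-values measure the spread between these arrays, which may be less than that between mice.

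Paracrine FGFs bind receptor tyrosine kinases together with heparan sulfate on the cell surface. The active receptor recruits adaptors and switches on the Ras-ERK kinase cascade, and that cascade induces Sprouty proteins, which damp it in turn. In the skull vault, FGF2 and FGF18 act on osteoblast precursors at the sutures. Activating mutations of FGFR1, FGFR2 and FGFR3 are known from human craniosynostosis syndromes, and FGFR3 also restrains the growth of cartilage.

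Array medians of the deposited signal lay between 20.2 and 28.6 in knockout arrays and between 18.7 and 22.7 in control arrays. Levels below are log2(signal + 16) after quantile normalisation, so differences are on that scale and understate those of dim genes. A level of 1 probe set is not comparable with that of another. Of 10 osteocyte markers, all above the level filter, 3 lay above and 7 below control, with a median difference of -0.13, and the groups did not overlap for 2, both lower (Dkk1 and Ptprz1), beside 7.76% of all tested genes lower. Dmp1, whose promoter drove the sorting marker, had levels of 12.41 to 12.69 in knockout and 12.67 to 12.97 in control arrays, and Phex of 10.90 to 10.99 in knockout and 10.89 to 11.03 in control arrays. For Esr1, the brightest of its 3 probe sets had levels of 6.63, 6.60 and 6.82 in knockout replicates 1, 2 and 3, against 6.97, 6.89 and 6.80 in control replicates 1, 2 and 3. These overlap. The dimmest probe set had signals of 1.0, 1.0 and 2.5 in knockout arrays and of 20.2, 11.6 and 13.3 in control arrays, without overlap. The labels do not place the deleted part of Esr1, so these values do not check the genotypes. Skeletal muscle RNA set control replicate 2 apart: its 11 muscle markers summed to a signal of 223.3, against 4476.3 to 21591.9 in knockout arrays and 32084.2 and 37688.5 in the other controls. Macrophage RNA set control replicate 1 apart instead. Its 8 macrophage markers summed to 2229.1, against 5782.1 to 7413.9 in knockout arrays and 8962.9 and 8380.1 in the other controls. Results are also given without control replicate 2, and the differences with each array left out. The controls kept without replicate 2 both had more muscle signal than any knockout array, so leaving it out does not match the groups for muscle RNA.

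The promoters of Fgfr3 and Spry2 are shown here because these genes lay furthest in opposite directions relative to their error. Each run is the 250 bases before the RefSeq start, 5′ to 3′ along the gene in build GRCm38.p6. Capitals mark the GC box GGGCGG, or CCGCCC on the other strand.
Fgfr3, chr5:33721474-33721723, plus strand: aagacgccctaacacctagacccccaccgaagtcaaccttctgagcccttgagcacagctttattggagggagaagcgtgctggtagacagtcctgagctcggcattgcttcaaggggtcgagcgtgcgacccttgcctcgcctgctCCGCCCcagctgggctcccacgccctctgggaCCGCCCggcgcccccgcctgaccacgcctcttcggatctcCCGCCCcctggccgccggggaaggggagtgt
Spry2, chr14:105896820-105897069, minus strand: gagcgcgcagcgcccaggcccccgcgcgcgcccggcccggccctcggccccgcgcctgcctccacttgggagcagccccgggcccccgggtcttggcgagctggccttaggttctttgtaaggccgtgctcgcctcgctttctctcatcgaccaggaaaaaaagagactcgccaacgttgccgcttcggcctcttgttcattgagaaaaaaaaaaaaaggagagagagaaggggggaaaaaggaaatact
The Fgfr3 window held 3 GC boxes that do not overlap each other, and the Spry2 window held 0, while 32.7% of the 32851 RefSeq windows of this length held at least 1. A second Fgfr3 start had 2 that share a base. The full estrogen response element, GGTCA and TGACC with any 3 bases between them, which reads alike on both strands, was in 0 of the 8 windows read for 7 of the 10 genes and in 0.0639% of all windows. G and C made up 66.8% of this Fgfr3 window and 62.4% of that of Spry2, against a median of 52.4%.

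Between the genotypes, Fgf1, Spry1 and Spry2 lay below control, and Fgfr2 and Fgfr3 above it, by 1.31-fold to 1.60-fold in size. None of the 9 genes above the level filter passed an adjusted p of 0.05 in limma, where 0% of the 10916 tested genes were called in either direction. Before adjustment, 2 of the 9 lay under a p of 0.05 as higher (Fgfr2 and Fgfr3) and 2 as lower (Fgf1 and Spry2), beside 5.85% of all tested genes higher and 4.69% lower. The groups did not overlap for 1 higher gene (Fgfr3) and 2 lower genes (Fgf1 and Spry2), beside 9.23% of tested genes higher and 7.76% lower. The median difference of the 9 genes was -0.03, and that of all tested genes -0.01.

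**Figure D1:**
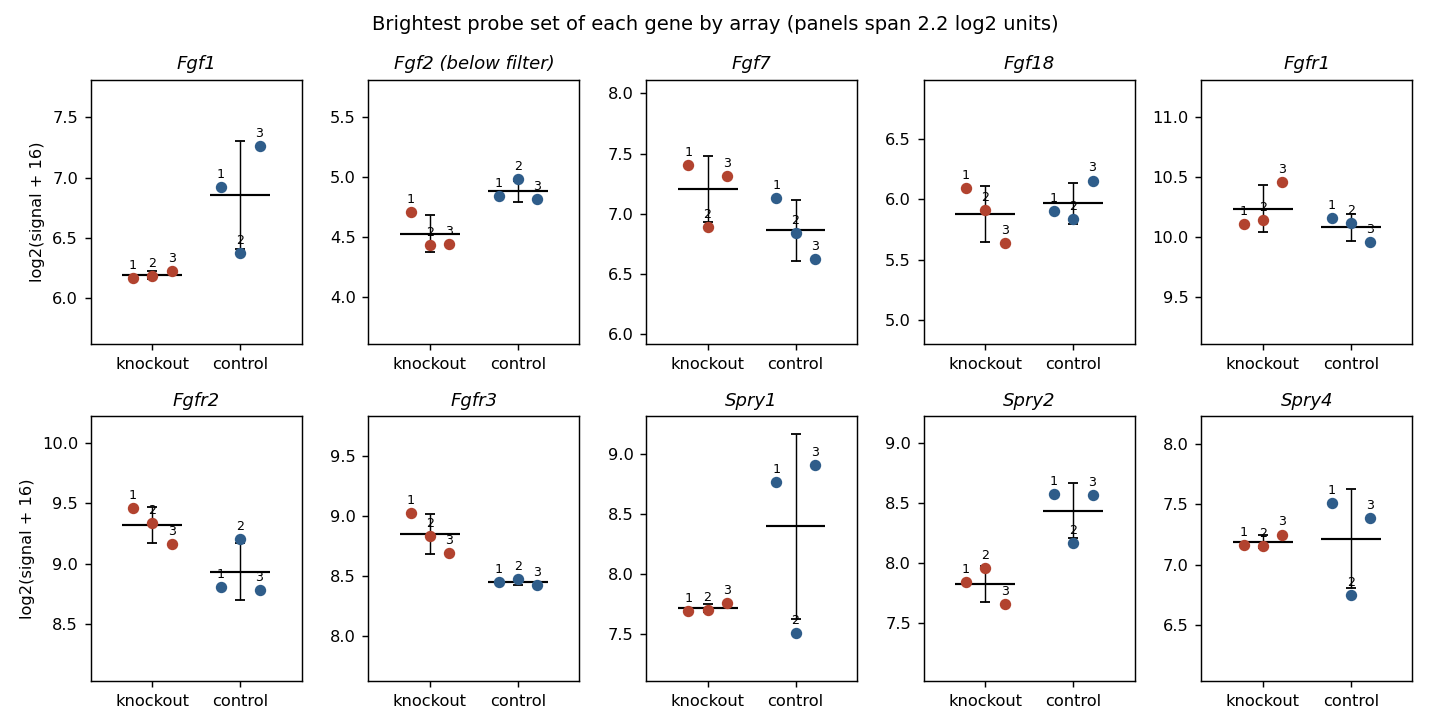
Level, as log2(signal + 16), of the brightest probe set of each of the 10 genes on 3 knockout arrays (left, red) and 3 control arrays (right, blue), with replicate numbers, the mean (bar) and 1 SD (error bar). For Fgf1 and Spry1 the knockout arrays lie close together while control replicate 2 lies well below the other controls.

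Among the ligands, Fgf1, a broad activator of all FGF receptors, had levels of 6.17, 6.18 and 6.23 in knockout replicates 1, 2 and 3, against 6.93, 6.37 and 7.26 in control replicates 1, 2 and 3. Every knockout array was below every control array, and control replicate 2 stood nearest to the knockout arrays. The difference was -0.66 ± 0.22 (SE, 95% interval -1.16 to -0.16, limma adjusted p = 0.389), a 1.58-fold lower value. The second of its 3 probe sets differed by -0.77 ± 0.23 (SE), also without overlap, while the dimmest differed by -0.02 ± 0.27 (SE), with overlap.

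Fgf7, the keratinocyte growth factor made by mesenchymal cells, had 7.40, 6.89 and 7.31 in knockout arrays and 7.13, 6.84 and 6.62 in control arrays. The groups overlapped, with a difference of 0.34 ± 0.18 (SE, 95% interval -0.09 to 0.77, limma adjusted p = 0.561). Without control replicate 3 the difference was 0.22. For the dimmer of its probe sets the difference was 0.15 ± 0.14 (SE).

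Fgf18, a ligand that acts on both bone and cartilage formation, had 6.09, 5.91 and 5.63 in knockout arrays, against 5.90, 5.84 and 6.16 in control arrays. The ranges overlapped in part, and the difference of -0.09 ± 0.17 had a 95% interval of -0.48 to 0.30 (SE, limma adjusted p = 0.884). With the deposited scaling it was 0.03, where the median of all genes was 0.14.

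Fgf2, a ligand stored in bone matrix, was dim. Its deposited signals were 9.7, 5.4 and 7.4 in knockout arrays and 13.1, 14.7 and 10.5 in control arrays. Every knockout array was lower, but all 6 signals lay under the pseudocount of 16. The gene fell below the level filter and entered no count. In a fit of every probe set its log2 difference was -0.35 ± 0.14 (SE).

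**Figure D2:**
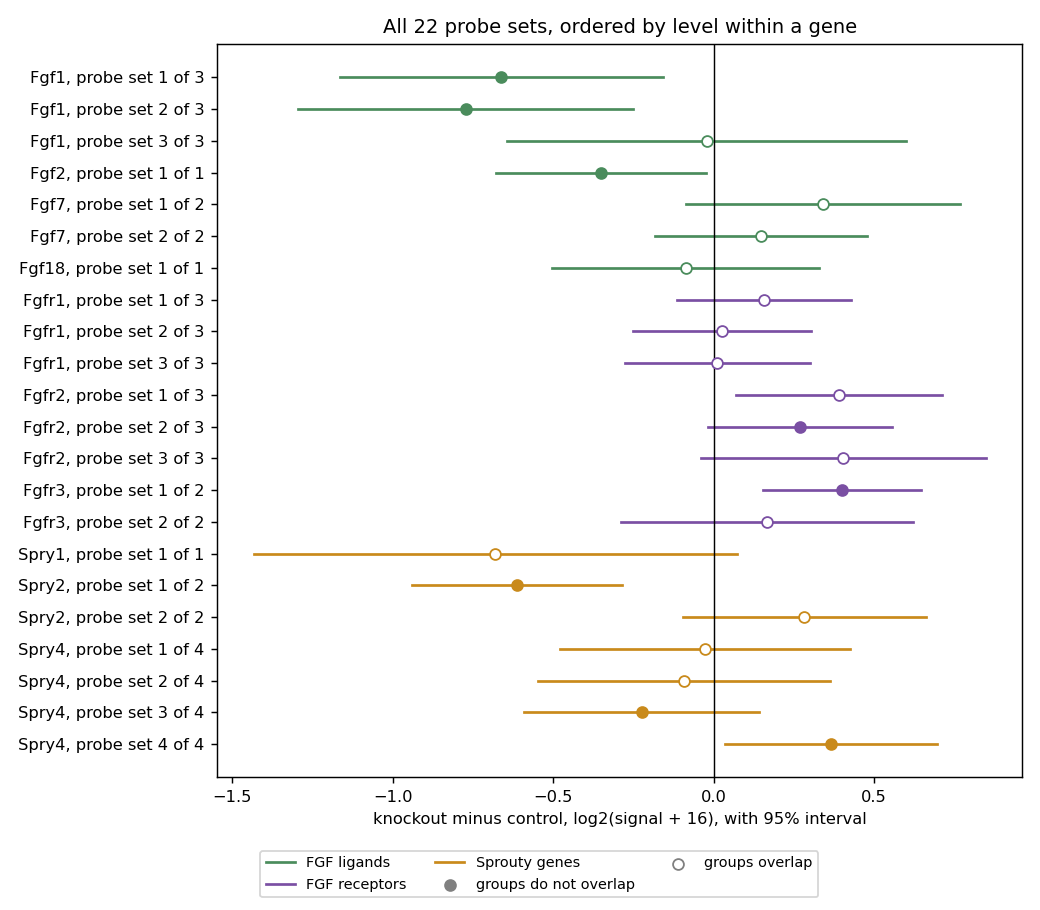
Knockout minus control difference in log2(signal + 16) of all 22 probe sets, with 95% intervals from 1 limma fit over every single-gene probe set. The groups do not overlap for the filled points: 2 probe sets of Fgf1, 1 each of Fgf2, Fgfr2, Fgfr3 and Spry2, and 2 of Spry4 that lie on opposite sides of 0.

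Of the receptors, Fgfr3 had levels of 9.03, 8.83 and 8.69 in knockout arrays, against 8.45, 8.47 and 8.43 in control arrays. The controls spanned 0.04 and lay below every knockout array. The difference was 0.40 ± 0.11 (SE, 95% interval 0.15 to 0.66, limma adjusted p = 0.326), or 1.32-fold higher. Its dimmer probe set differed by 0.17 ± 0.20 (SE), with overlap.

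Fgfr3 is also a receptor of growing cartilage, and cartilage markers were higher in knockout arrays as well. The mean centred level of the 10 chondrocyte markers was 0.91, 1.00 and 0.14 in knockout replicates 1, 2 and 3 and -0.29, -1.01 and -0.76 in control replicates 1, 2 and 3. All 10 were measured and above 0 in difference, none was under a signal of 16 on all arrays, and their summed signal ran from 4302.2 to 6538.1 in knockout and from 1182.9 to 2804.9 in control arrays. Knockout replicate 3 was the lowest knockout array for both Fgfr3 and this list. Among controls the list spanned 0.72 and Fgfr3 0.04. Meningeal markers, 7 of 8 tested, had mean centred levels of 0.58, 0.19 and 0.04 in knockout and -0.67, -0.30 and 0.17 in control arrays. They summed to a signal of 2520.5 to 3392.1 in knockout and 1872.0 to 2304.2 in control arrays, with Slc6a13 under 16 on all arrays. Of the 7, 6 lay above control, 5 of those without overlap, beside 9.23% of all tested genes. The 1 below control was Ptgds, with 8.10, 6.08 and 5.73 in knockout and 6.04, 7.37 and 9.63 in control arrays, which widens the spread of the list mean. The part of cartilage and meningeal RNA in the differences of Fgfr3, of Fgfr2 and of the receptor-binding and heparan sulfate genes below was not tested. In such bulk RNA, fewer cells of a type and less RNA per cell cannot be told apart.

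Fgfr2, a receptor of osteoblast precursors in the sutures, had 9.47, 9.34 and 9.16 in knockout arrays, against 8.81, 9.21 and 8.78 in control arrays. Control replicate 2 reached into the knockout range. The difference was 0.39 ± 0.14 (SE, 95% interval 0.06 to 0.72, limma adjusted p = 0.416). All 3 probe sets of Fgfr2 lay above control, the others by 0.27 ± 0.12 and 0.40 ± 0.19 (SE).

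Fgfr1, a receptor found from mesenchymal precursors to mature bone cells, had 10.11, 10.14 and 10.46 in knockout arrays and 10.16, 10.12 and 9.96 in control arrays. Only knockout replicate 3 lay above the control range. The difference of 0.16 ± 0.12 had a 95% interval of -0.12 to 0.43 (SE, limma adjusted p = 0.674), and without knockout replicate 3 it was 0.05. The other probe sets lay at 0.03 ± 0.12 and 0.01 ± 0.13 (SE).

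Sprouty genes encode inhibitors that are induced by ERK signalling. Spry2 had levels of 7.84, 7.96 and 7.66 in knockout arrays, against 8.57, 8.17 and 8.56 in control arrays. All knockout arrays were below all controls. The difference was -0.61 ± 0.15 (SE, 95% interval -0.95 to -0.28, limma adjusted p = 0.284), or 1.53-fold lower. A second, dim probe set had 0.28 ± 0.16 (SE), with overlap, and the mean of both probe sets gave -0.17.

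Spry1 had 7.69, 7.70 and 7.76 in knockout arrays, against 8.77, 7.51 and 8.91 in control arrays. Control replicate 2 was the lowest of all 6 arrays, so the groups overlapped. The SD was 0.04 among knockout and 0.77 among control arrays (n = 3 each). The difference of -0.68 ± 0.34 (SE, limma adjusted p = 0.521) had a 95% interval of -1.46 to 0.10. It was -0.50 without control replicate 1 and -0.43 without control replicate 3.

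Spry4 had 7.17, 7.15 and 7.25 in knockout arrays, inside the range of 7.52, 6.75 and 7.38 in control arrays. Its difference was -0.03 ± 0.20 (SE, 95% interval -0.49 to 0.43, limma adjusted p = 0.978), and 0.13 with the deposited scaling. The 4 probe sets ran from -0.22 to 0.37, and the dimmest, with signals of 14.8, 10.1 and 9.3 in knockout and 5.7, 3.9 and 4.1 in control arrays, was the 1 probe set of a Sprouty gene whose knockout arrays were all above control.

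Without control replicate 2, Spry1, Spry2 and Fgf1 fell in knockout arrays by limma. Spry1 differed by -1.12 ± 0.10 (SE, adjusted p = 0.00633), Spry2 by -0.74 ± 0.12 (SE, adjusted p = 0.0267) and Fgf1 by -0.90 ± 0.14 (SE, adjusted p = 0.0241). These were 3 of 9 genes, where 1.94% of all tested genes were called lower and 0.788% higher in that fit. Of the 9, 0 were called higher, with Fgfr2 at 0.53 ± 0.12 (SE, adjusted p = 0.0668) and Fgfr3 at 0.41 ± 0.12 (SE, adjusted p = 0.153). With any other single array left out, including control replicate 1 with its low macrophage signal, 0 of the 9 passed in either direction. The fit without control replicate 2 kept the controls with the most muscle signal.

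**Figure D3:**
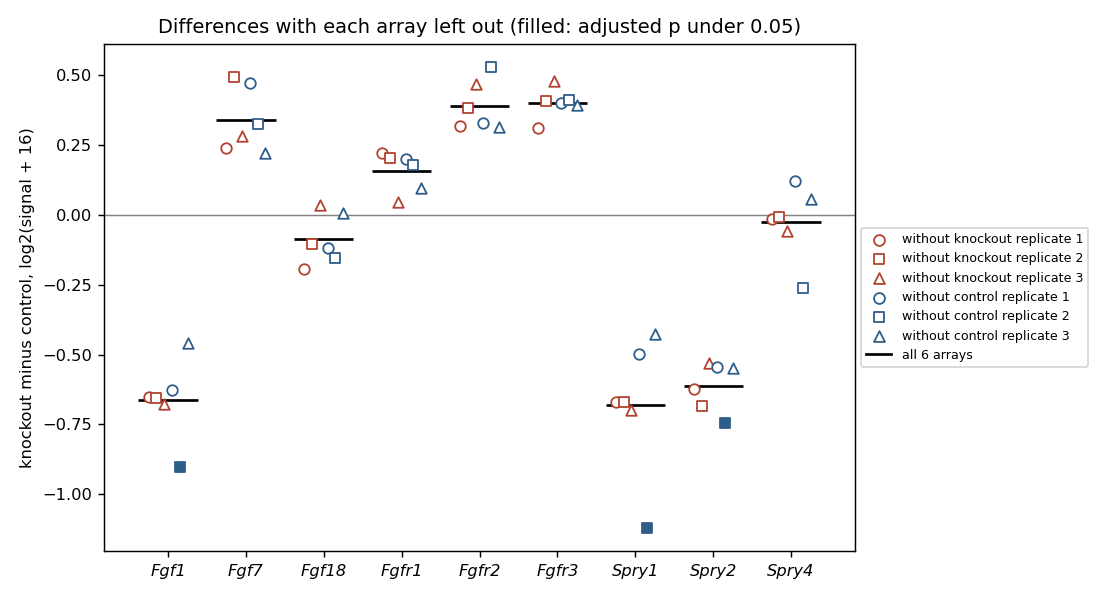
Knockout minus control difference in log2(signal + 16) of the 9 tested genes with all 6 arrays (bar) and with each array left out (symbols, filled where the limma adjusted p was under 0.05). Leaving out control replicate 2 gives the only filled symbols, for Fgf1, Spry1 and Spry2, and the difference of Fgfr3 stays between 0.31 and 0.48.

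The array on which these calls rest also differed in RNA of other cell types. The 10 pericyte and smooth muscle markers, all measured and none under a signal of 16 on all arrays, had mean centred levels of -0.15, -0.21 and -0.29 in knockout replicates 1, 2 and 3, and of 0.38, -0.24 and 0.50 in control replicates 1, 2 and 3. Their summed signal was 15473.9 to 18763.9 in knockout and 16010.0 to 25401.7 in control arrays. Of these 10 markers, 9 lay below control, with a median difference of -0.45. For 4 of them every knockout array was below every control, replicate 2 included, and for 0 above. Of all tested genes, 7.76% were lower and 9.23% higher without overlap. Fgf1 and Spry1 show the same order in controls as this list mean, with replicate 3 highest and replicate 2 lowest. The osteocyte list shows it too, at 0.08, -0.25 and 0.31 in control replicates 1, 2 and 3. So does the endothelial list, at 0.02, -0.19 and 0.15. Within the pericyte and smooth muscle list, Myh11, Tagln, Acta2, Cnn1 and Notch3 follow this order. Rgs5, Kcnj8, Abcc9, Cspg4 and Pdgfrb are highest in control replicate 1, with Kcnj8 and Abcc9 lowest in replicate 3.

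Suture and adventitial fibroblast markers, 7 of 9 tested and none of the 8 measured under a signal of 16 on all arrays, had -0.39, -0.31 and -0.15 in knockout and 1.11, -1.27 and 1.01 in control arrays. They summed to 2247.2 to 3760.7 in knockout and 1351.8 to 6506.6 in control arrays. Skeletal muscle markers, 9 of 11 tested and none under 16 on all arrays, had -0.64, -0.79 and 0.99 in knockout and 2.17, -3.90 and 2.18 in control arrays. Among knockout arrays, muscle signal stood highest in replicate 3. Fgf1 and Spry1 were also highest there, each spanning 0.06 over the 3 arrays, while Spry2 was lowest there and spanned 0.30. The part of these cell types in the differences of Fgf1, Spry1 and Spry2 was not tested.

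**Figure D4:**
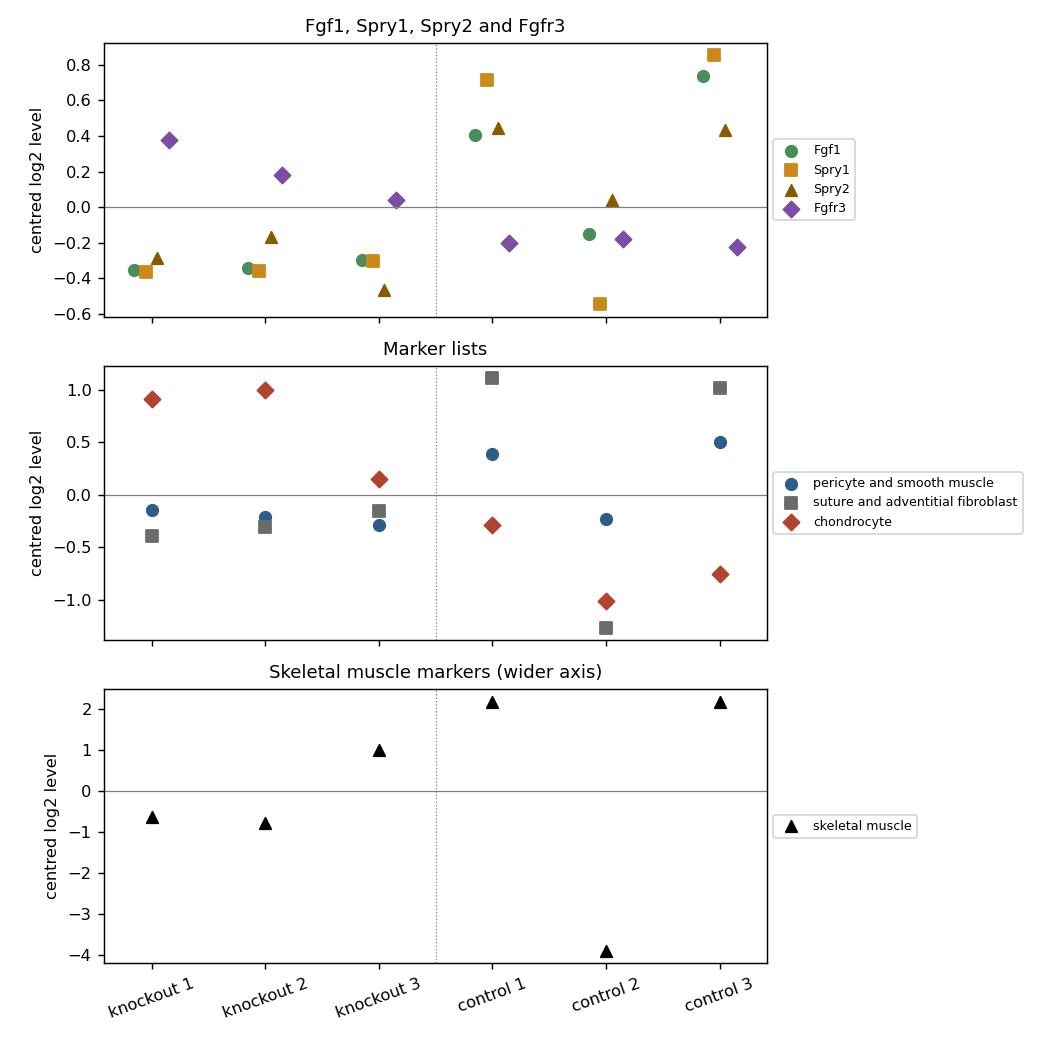
Levels centred over the 6 arrays, on the log2(signal + 16) scale, of Fgf1, Spry1, Spry2 and Fgfr3 (top), of pericyte and smooth muscle, fibroblast and chondrocyte marker lists (middle) and of skeletal muscle markers (bottom, wider axis), with knockout arrays left of the dotted line. In the controls Fgf1, Spry1, Spry2 and every marker list shown, the chondrocyte list included, are lowest in replicate 2, while Fgfr3 is highest there.

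Fgf1 and Spry1 spanned more than 1 log2 unit over the 6 arrays, by 1.09 and 1.40. The 2 tested genes with the smallest mean absolute difference from Fgf1 after centring over the 6 arrays were Pcp4l1 (0.04) and Pde5a, a phosphodiesterase of cyclic GMP (0.07). For Spry1 they were Hopx, a homeodomain protein that does not bind DNA (0.06), and Gucy1a1, a subunit of soluble guanylate cyclase (0.08). Gucy1a1 had 8.38, 8.26 and 8.27 in knockout arrays and 9.29, 8.26 and 9.48 in control arrays. Its low control replicate 2 follows from its choice by nearness to Spry1 on these same arrays.

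The surrounding pathway was read from 98 further genes in lists by role, of which 90 had a probe set and 68 passed the level filter. None passed an adjusted p of 0.05 (limma). The difference was above 0 for 40 and below 0 for 28, with a median of 0.06, beside 48.3% of all tested genes above 0. Before adjustment, 10 of the 68 lay under a p of 0.05 as higher and 0 as lower, beside 5.85% and 4.69% of all tested genes. With the deposited scaling 59 of them were above 0, beside 76.4% of all tested genes, and their median was 0.20, against 0.14 for all genes. Without control replicate 2, 2 of 69 tested were called higher (Sdc1 and Ier2) and 0 lower, beside 0.788% and 1.94% of all tested genes.

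Most other ligands were dim. Of 11 further paracrine ligands only Fgf9 passed the level filter, with 5.90, 4.97 and 5.57 in knockout and 5.88, 5.80 and 5.80 in control arrays. The endocrine ligands and the Klotho coreceptors were all below the filter, Fgf23, the phosphate hormone of osteocytes, at a mean of 4.53 in knockout and 4.30 in control arrays. Of the intracellular FGF homologous factors, Fgf11 differed by 0.34 ± 0.15 and Fgf13 by -0.30 ± 0.18 (SE).

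Receptor-like and receptor-binding proteins gave 5 above and 3 below 0 among 8 tested genes, with a median of 0.33. The groups did not overlap for 4 of the 8 as higher and 0 as lower, beside 9.23% and 7.76% of all tested genes. Fgfrl1, a receptor without a kinase domain that binds FGFs, had 8.47, 8.40 and 8.35 in knockout arrays, against 7.89, 7.97 and 7.93 in control arrays. The lowest knockout array was 0.38 above the highest control, and the difference was 0.47 ± 0.09 (SE, 95% interval 0.26 to 0.68, limma adjusted p = 0.203). Flrt2 and Flrt1, membrane proteins of which family members bind FGF receptors, differed by 0.40 ± 0.10 and 0.48 ± 0.14 (SE, limma adjusted p = 0.296 and 0.338).

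Heparan sulfate carriers and enzymes, which set how FGFs reach their receptors, lay above 0 for 13 and below for 6 of 19 tested. Their median was 0.08. The groups did not overlap for 5 of the 19 as higher and 0 as lower, beside 9.23% and 7.76% of all tested genes. Sdc1, the proteoglycan syndecan-1, had 9.29, 9.09 and 9.35 in knockout arrays, against 8.63, 8.74 and 8.63 in control arrays. The lowest knockout array was 0.36 above the highest control, with a difference of 0.58 ± 0.10 (SE, limma adjusted p = 0.183), and Sdc1 passed without control replicate 2 (0.62 ± 0.11, SE, adjusted p = 0.0356). Sulf2, a sulfatase that trims heparan sulfate, had 9.68, 10.09 and 9.72 in knockout and 8.80, 9.10 and 9.32 in control arrays (0.76 ± 0.16, SE, limma adjusted p = 0.248). Gpc3, a glypican, differed by 0.59 ± 0.19 (SE, limma adjusted p = 0.394).

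The adaptors and the Ras-ERK cascade lay closer to 0, with 5 above and 8 below among 13 tested genes and a range of -0.22 to 0.18. Map2k1, an ERK kinase, differed by -0.22 ± 0.13, the adaptor Shc1 by 0.18 ± 0.10 and the docking protein Frs3 by 0.18 ± 0.16 (SE).

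Other feedback inhibitors gave 4 above and 5 below 0 of 9, with a median of -0.03. The groups did not overlap for 1 of them as higher and 0 as lower, beside 9.23% and 7.76% of all tested genes, a count near the background. Dusp5, an ERK phosphatase, had 7.64, 7.67 and 7.51 in knockout and 6.99, 7.38 and 7.50 in control arrays, 0.32 ± 0.15 (SE, limma adjusted p = 0.501). Errfi1 and Spred1, a relative of the Sprouty proteins, differed by 0.08 ± 0.10 and -0.07 ± 0.13 (SE). ETS factors and early ERK targets were above 0 for 8 of 9, beside 48.3% of all tested genes, with a median of 0.19. The groups did not overlap for 3 of the 9 as higher and 0 as lower, beside 9.23% and 7.76% of all tested genes. The only listed ETS factor that was tested was Etv5, at 0.14 ± 0.15 (SE). Etv4 fell below the level filter and Etv1 had no probe set. Ier3 had 12.36, 12.15 and 12.02 in knockout and 11.22, 11.93 and 11.85 in control arrays, Ier2 differed by 0.29 ± 0.13 and Egr3 by 0.24 ± 0.11 (SE). Without control replicate 2, Ier2 passed at 0.44 ± 0.08 (SE, limma adjusted p = 0.0347).

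Craniofacial and suture genes tied to FGF signalling were above 0 for 4 and below for 3 of 7, with a median of 0.01. Gli3 differed by 0.32 ± 0.14, Msx2 by 0.26 ± 0.15 and Sp7, the osteoblast factor osterix, by -0.17 ± 0.10 (SE).

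**Figure D5:**
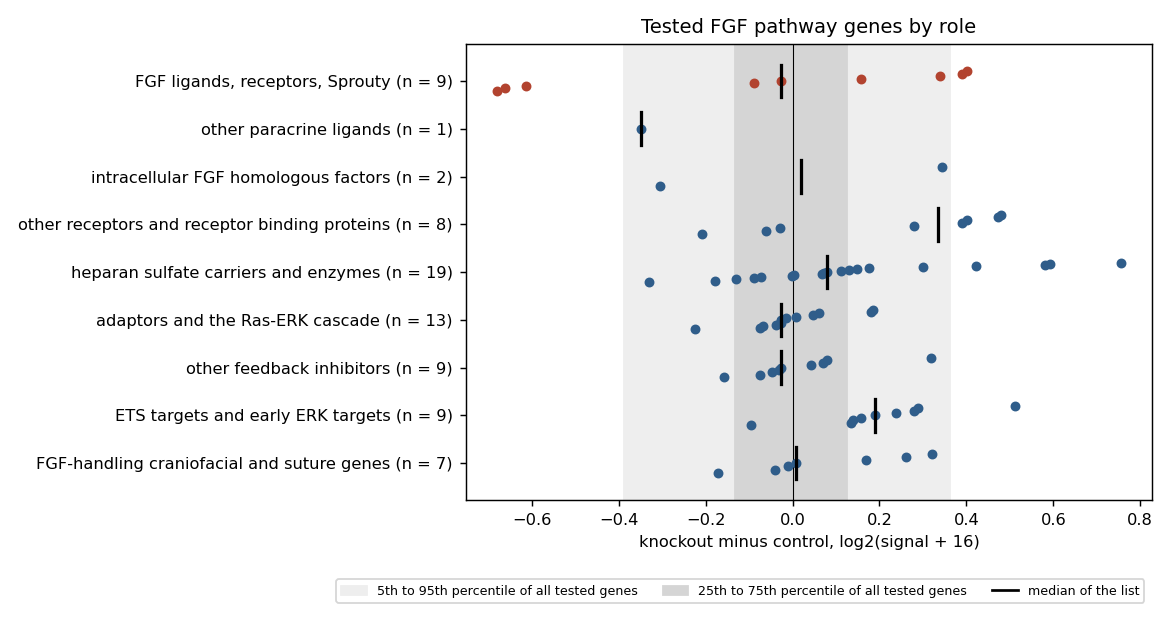
Knockout minus control difference in log2(signal + 16) of each tested gene, by role, with the median of each list (black bar) and the spread of all tested genes (grey). Fgf1, Spry1 and Spry2 lie left of the 5th percentile of all tested genes, -0.39, and the list of receptor-like and receptor-binding proteins has its median at 0.33.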

How the data were processed

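The authors deposited 1 intensity per probe set and array on a linear scale, from 6 Affymetrix arrays. GCOS is the tool in the submitters' processing notes. The labels do not say how background, probe summary and scaling were handled. No detection calls were used, and the number of arrays limits the precision. Array medians differed by 0.36 in log2(signal + 16), above a limit of 0.25, so arrays were quantile normalised. Of 45101 probe sets, 64 controls were left out, 34945 had 1 gene, 932 several and 9160 were unnamed. RefSeq gave current symbols for 34741. Each gene was read by its brightest probe set, and the lowest 40% of 18193 genes, under 5.37, were left out. Knockout was compared with control over 10916 genes with limma 3.58.1 in R 4.3.3, with a mean-variance trend, 2-sided, no covariate, and Benjamini-Hochberg adjustment. Other probe sets came from the same fit without the filter. The fit was also run on simulated levels with independent arrays, which do not carry the cell type differences seen here. Named genes were the 10 genes, Esr1, up to 3 of each pathway list with the smallest p, and the nearest genes of members spanning over 1 log2 unit. Dmp1, Phex, Dkk1, Ptprz1, Slc6a13, Ptgds, Fgf23, Etv1, Etv4 and Etv5 were named outside this rule, after their values were seen. So were the pericyte and smooth muscle markers. Genes and lists were chosen with earlier results of these data known. Exact permutation of 3 against 3 arrays cannot give a 2-sided p under 0.1.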

Additional observations from a re-analysis of the deposited data

How the results depend on the processing

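Of the 10916 tested genes, limma called 0 higher and 0 lower after adjustment, with 639 and 512 at an unadjusted p under 0.05. With 1 array left out, the count ran from 0 to 86 higher and from 0 to 212 lower, and that of the 9 genes from 0 to 3 lower. Both upper values came without control replicate 2. The deposited scaling gave 30 higher and 0 lower genes, and 0 of the 9 genes were called. That scaling moved the median of all genes to 0.14 and the share above 0 to 76.4%, against 48.3%. The cause was not tested. Fgf18 and Spry4 changed sign, to 0.035 and 0.13 with the deposited scaling, Spry4 to 0.0054 with the mean of all probe sets, and with 1 array left out they ran from -0.20 to 0.034 and from -0.26 to 0.12. The other 7 genes kept their direction under every alternative in which they were tested. The alternatives were other pseudocounts, filters, probe set rules, no trend, array weights, a replicate block and each array left out. Replicate numbers are not stated to be shared between genotypes, and deviations of same-numbered arrays correlated at -0.38, 0.10 and -0.04. With the replicate number as a block, 0 genes were called, and Spry2 stood at -0.61 (adjusted p = 0.611) and Fgf1 at -0.66. With the lowest 60% left out, Fgf1 and Fgf18 were not tested. Dim probe sets, as those of Fgf2 and the dimmest of Spry4, lay under the pseudocount.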
